A study of Homo sapiens with 28 samples.

Results

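The comparison of JQ1-VHL with DMSO in the cytoplasm of MDA-MB-453 cells took 6 of the 28 libraries of the series, 3 of each group, and all genes of both deposited tables. Of the 16482 genes with a value for all reads, 12470 were tested, and of the 13029 genes with a value for T>C reads, 6300. MDA-MB-453 is an established human breast cancer line of luminal type that carries an amplified ERBB2. The groups used here were JQ1-VHL (n = 3), JQ1 (n = 3), IBET151-VHL (n = 3), IBET151 (n = 2) and DMSO (n = 3), each given for 3 h. All cultures, DMSO included, received 0.1 mM 4-thiouridine for the last 60 min and 10% Drosophila S2 cells, were parted with digitonin, and the supernatant was taken as cytoplasm. Doses are not in the labels, and every library had 4-thiouridine.

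BET proteins bind acetylated histones through bromodomains and help RNA polymerase II leave the promoter-proximal pause, in part through the kinase P-TEFb. JQ1 and IBET151 occupy the bromodomains. By their names, JQ1-VHL and IBET151-VHL join such an inhibitor to a ligand of VHL, the substrate receptor of a ubiquitin ligase, and are built to bring BET proteins to the proteasome. 4-thiouridine enters RNA while it is made and, after alkylation, is read as C in place of T, so a T>C read stands for new RNA. A cytoplasmic T>C read that stems from the label comes from a molecule that was made, polyadenylated and released from the nucleus while the label was present. mRNAs differ widely in lifetime, and those of many transcription factors and feedback inhibitors turn over quickly.

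The 6 libraries held 30647584 to 50793337 reads, of which 92537 to 379401 were T>C reads. Values are in the authors' ERCC-scaled units, in which 1 read was worth 0.517 to 0.906. ERCC spike-in RNA went in by RNA mass, so a value is a level per mass of cytoplasmic RNA and not per cell. Fewer cells, or a loss shared by all RNA of a cell, would not show in such a value. Of the line's known markers, ERBB2 lay between 3974 and 5407 and the luminal keratin gene KRT18 between 22962 and 35729 in the 6 libraries, while the basal keratin genes KRT5 and KRT14 stayed at 5.20 or less and VIM at 2.23 or less. Other genes of the basal epithelial list had values in the line, with ITGA6 at 339 to 539, OXTR at 80.2 to 127, CDH2 at 73.5 to 121 and TP63 at 10.5 to 22.8 over the 6 libraries. Of 17 stromal and immune marker genes 13 were in the table, with a summed value of 1672 to 1977 with JQ1-VHL and 1228 to 2576 with DMSO, nearly all of it COL1A1, while COL3A1, CD14 and CDH5 were at or near 0. CD68 lay at 19.9 to 58.3 with JQ1-VHL and 29.5 to 33.8 with DMSO, and VWF at 14.5 to 26.0 and 8.86 to 35.5. DMSO replicate 1 stood apart in a small set of genes: it lay under 0.5 times the lowest of the other 5 libraries in 324 of 12470 genes (2.60%), among them 5 of 78 ribosomal protein genes and 7 of 51 respiratory chain genes. Nothing says that the replicates came from separate experiments, so p-values measure the spread between these libraries.

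T>C reads in the cytoplasm were scarcer after JQ1-VHL than after DMSO, while the summed value of all reads, a level per mass of RNA, differed little. Whether uptake of the label differed between the groups was not tested. That sum does not tell whether the amount of RNA per cell changed. T>C reads made up 0.262%, 0.302% and 0.299% of all reads in the JQ1-VHL libraries, against 0.818%, 0.782% and 0.747% in the DMSO libraries. Every JQ1-VHL library lay below every DMSO library, with a mean share of 0.288% ± 0.0221 with JQ1-VHL and 0.782% ± 0.0355 with DMSO (SD, n = 3 each). The summed value of T>C reads was 2.89-fold lower with JQ1-VHL (log2 difference -1.53), and that of all reads 1.06-fold lower (log2 difference -0.085). In all reads the groups overlapped. A 2-sided exact permutation test gave p = 0.1 for the share and for the summed T>C reads, which is the smallest p that 3 against 3 libraries allow, and 0.7 for the sum of all reads (0.15, 0.15 and 0.7 after Benjamini-Hochberg adjustment over these 3).

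A small set of genes held much of the T>C signal. In 153 genes at least 20% of the reads of the DMSO libraries were T>C reads, and these genes held 55.2% of all T>C value with JQ1-VHL and 20.2% with DMSO. Without them the summed T>C value was 5.19-fold lower with JQ1-VHL (log2 difference -2.37), and the share was 0.129% with JQ1-VHL and 0.626% with DMSO. How T>C reads were called is not given in the sources used here, and the part of fixed T-to-C differences in these genes was not tested.

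**Figure D1:**
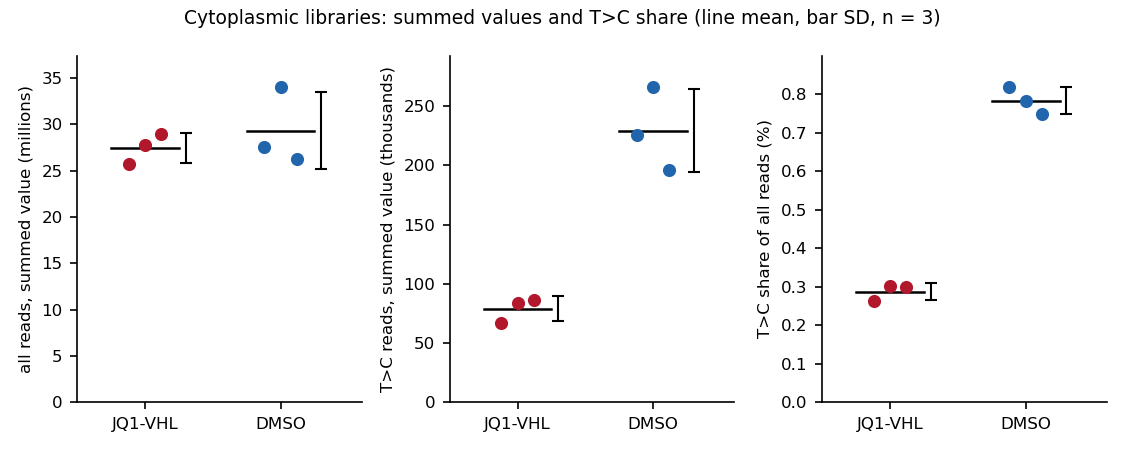
Summed value of all reads, summed value of T>C reads and T>C reads as a percentage of all reads in each library (points), JQ1-VHL left of DMSO, with the mean and SD of 3 libraries. The groups overlap in all reads, and the JQ1-VHL libraries lie below all DMSO libraries in T>C reads and in the T>C share, which was 0.262% to 0.302% with JQ1-VHL and 0.747% to 0.818% with DMSO.

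At the level of single genes, falls outnumbered rises in all reads. Of 12470 genes tested with limma, 52 rose (0.417%) and 1556 fell (12.5%) at an adjusted p under 0.05, so 12.9% passed in all. Of the genes that passed, 877 fell at least 2-fold, 159 fell at least 4-fold and 47 rose at least 2-fold. Changes are given as the log2 change of (value + 1), JQ1-VHL minus DMSO, with values in ERCC-scaled units. The median log2 change was -0.17, and 70.6% of genes were below 0. In 1542 of the 1556 fallers and 48 of the 52 risers no JQ1-VHL library overlapped a DMSO library, against 2929 of all 12470 genes (23.5%). The fallers were ordinary in level, with a median DMSO mean of 532 against 565 over all genes tested, while 42 of the 52 risers had a DMSO mean under 50 and 29 under 10. A gene entered the test with a value of 10 in 2 libraries of any group, so one with a DMSO mean under 10 could enter through the libraries where it was high. With that minimum 5 times higher, 23 rose and 1522 fell of 10669. When libraries were scaled to a common median ratio instead of ERCC RNA, the median of all genes moved to 0.05 and the split to 231 higher and 1173 lower. The counts also depended on single libraries, with 906 genes passing without JQ1-VHL replicate 1 and 2083 without DMSO replicate 3, against 1608 with all. Without DMSO replicate 1, the library that stood apart, 43 genes rose and 1471 fell.

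**Figure D2:**
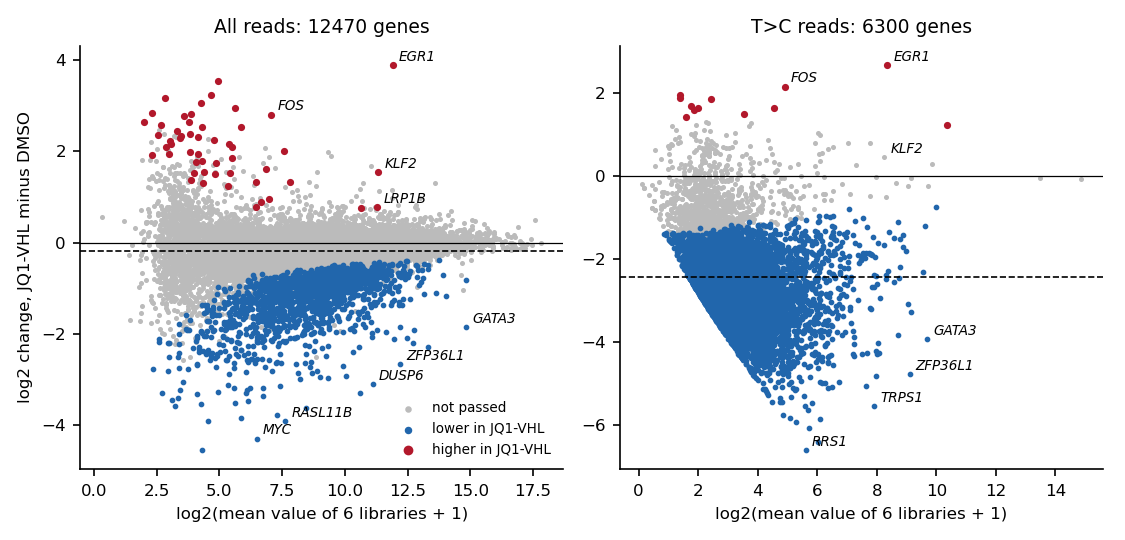
Log2 change of each gene, JQ1-VHL minus DMSO, against log2 of its mean value over the 6 libraries, in all reads (left) and T>C reads (right), with genes that passed at an adjusted p under 0.05 in colour and the median of all genes dashed. In all reads 1556 genes fell and 52 rose, and in T>C reads most genes lie well below 0, with EGR1 and FOS above it.

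The largest rise was that of EGR1, an immediate-early zinc finger transcription factor switched on by MAP kinase and serum response factor signalling. EGR1 had 10959, 2431 and 8302 in the JQ1-VHL libraries, against 411, 251 and 647 in the DMSO libraries in all reads. The groups did not overlap, although the JQ1-VHL libraries differed among themselves and replicate 2 was the lowest of them (log2 change 3.90 ± 0.67 (SE), adjusted p = 0.00129). FOS, a subunit of the AP-1 transcription factor, had 223, 83.3 and 404 in the JQ1-VHL libraries, against 22.5, 27.9 and 32.1 in the DMSO libraries (log2 change 2.80 ± 0.59 (SE), adjusted p = 0.00533), with the same replicate lowest. EGR1 and FOS also rose in T>C reads, the only genes to do so with a mean T>C value of at least 20 and no overlap between the groups. T>C values of EGR1 were 752, 220.1 and 718 in the JQ1-VHL libraries, against 89.4, 37.99 and 129 in the DMSO libraries (log2 change 2.68 ± 0.48 (SE), adjusted p = 2.20e-05), and those of FOS were 38.9, 11.8 and 101 in the JQ1-VHL libraries, against 6.44, 6.75 and 9.31 in the DMSO libraries (log2 change 2.15 ± 0.58 (SE), adjusted p = 0.00144). The T>C share of EGR1 reads was smaller with JQ1-VHL: 8.19% with JQ1-VHL and 19.0% with DMSO, adjusted p = 5.76e-06. With weights per library the FOS rise in all reads no longer passed (adjusted p = 0.076).

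The promoters of both are shown because these genes rose in both kinds of reads. Each line gives the 120 bases before the transcription start from RefSeq (GRCh38.p14, plus strand), with CArG boxes, the binding motif of serum response factor, in capitals for EGR1 and the TATAAA box in capitals for FOS.
EGR1, chr5:138465359-138465478: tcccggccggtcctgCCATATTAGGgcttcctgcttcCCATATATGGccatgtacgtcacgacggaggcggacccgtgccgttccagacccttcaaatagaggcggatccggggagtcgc
FOS, chr14:75278708-75278827: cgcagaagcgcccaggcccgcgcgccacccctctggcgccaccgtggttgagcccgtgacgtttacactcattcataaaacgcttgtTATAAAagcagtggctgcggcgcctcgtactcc
The CArG box was searched on both strands as CC, then 6 bases of A or T, then GG, in 250 bases before to 50 after the start. EGR1 held 2, FOS 0 in this window and SRF 2. Of all 27305 RefSeq promoters, 351 held the motif (1.29%), of the 10012 tested genes found in it 109 (1.09%), of 1261 fallers 13 (1.03%) and of 38 risers 1 (2.63%). TATAAA, on the sense strand in the 50 bases before the start, was in 796 of all promoters (2.92%), 166 of the tested genes (1.66%), 24 fallers (1.90%) and 3 risers (7.89%).

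Most other immediate-early genes did not rise. Of 15 immediate-early transcription factors tested, 2 rose and 6 fell, and the median log2 change was -0.64, against -0.17 over all genes. Of all genes, 0.417% rose and 12.5% fell. The AP-1 subunit gene FOSL2 had 157, 176 and 182 in the JQ1-VHL libraries, against 599, 609.6 and 552 in the DMSO libraries. The orphan nuclear receptor gene NR4A2 had 6.70, 18.1 and 8.17 in the JQ1-VHL libraries, against 59.6, 70.1 and 65.2 in the DMSO libraries, and BTG2, an antiproliferative cofactor of mRNA deadenylation, had 44.3, 59.8 and 100.3 in the JQ1-VHL libraries, against 205, 401 and 288 in the DMSO libraries. In all 3 genes every JQ1-VHL library lay below every DMSO library, with log2 changes of -1.77, -2.57 and -2.14 (adjusted p = 7.55e-05, 0.00039 and 0.000291). MAFF, a small MAF protein, also fell (-1.34, adjusted p = 0.0135), except without DMSO replicate 2 or JQ1-VHL replicate 1 (adjusted p = 0.0612 and 0.085). The number of falls in this list was 3 without DMSO replicate 2, without JQ1-VHL replicate 1 or with weights per library, against 6 in the fit of all libraries.

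A few further genes rose at a sizeable level. KLF2, a transcription factor of the Krüppel-like family, had 4092, 2574 and 4600.3 in the JQ1-VHL libraries, against 686, 1488 and 1885 in the DMSO libraries (log2 change 1.55 ± 0.37 (SE), adjusted p = 0.0109), and the groups did not overlap. Its T>C value did not pass (0.46, adjusted p = 0.198), and its T>C share was 9.36% with JQ1-VHL and 20.3% with DMSO. LRP1B, a large lipoprotein receptor, had 3199, 3052 and 3167 in the JQ1-VHL libraries, against 1708, 2149 and 1673 in the DMSO libraries (log2 change 0.78 ± 0.18 (SE), adjusted p = 0.00932). TEX14, a gene of germ cell bridges, and H2BC18, a histone H2B gene whose reads may be shared with near-identical copies, rose by 2.53 and 2.02 (adjusted p = 0.00267 and 0.00431). Of the 52 risers 14 had enough T>C reads for a test, and 5 rose in both tables, namely CATSPERB, CPE, EGR1, FOS and TEX14. CATSPERB lost its call in all reads without DMSO replicate 3 or JQ1-VHL replicate 2 (adjusted p = 0.0542 and 0.0633), and in T>C reads without DMSO replicate 1 or 2 or JQ1-VHL replicate 2, with the run block and with DESeq2 (adjusted p = 0.0545 to 0.136). KLF2 no longer passed without JQ1-VHL replicate 1 or 3 (adjusted p = 0.0558 and 0.0546).

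Among genes with a mean of at least 50, MYC, RASL11B, OTX1, EDN1 and SPRY1 had the largest falls. MYC, the growth-promoting transcription factor best known as a target of BET inhibition, had 10.7, 6.34 and 4.46 in the JQ1-VHL libraries, against 70.8, 202 and 239 in the DMSO libraries (log2 change -4.29 ± 0.48 (SE), adjusted p = 5.33e-05), a mean 23.8-fold lower. Its DMSO libraries were uneven, replicate 1 being the lowest, yet all lay above the JQ1-VHL libraries. RASL11B, a RAS-like small GTPase, had 22.1, 19.9 and 30.5 in the JQ1-VHL libraries, against 415, 335 and 362 in the DMSO libraries (log2 change -3.90 ± 0.30 (SE), adjusted p = 3.33e-06). OTX1, a homeobox transcription factor, fell by 3.85 on the log2 scale (adjusted p = 3.72e-05), and the genes of the vasoconstrictor peptides endothelin 1 and 2, EDN1 and EDN2, fell by 3.77 and 3.29 (adjusted p = 5.94e-05 and 0.000517). PLK2, a polo-like kinase with a short-lived mRNA, had 272, 287 and 295 in the JQ1-VHL libraries, against 2844, 2746 and 2825 in the DMSO libraries (log2 change -3.30 ± 0.21 (SE), adjusted p = 6.51e-07). RGS16, which shortens G protein signals, fell by 3.22 (adjusted p = 3.30e-05). In these genes no JQ1-VHL library reached the lowest DMSO library.

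**Figure D3:**
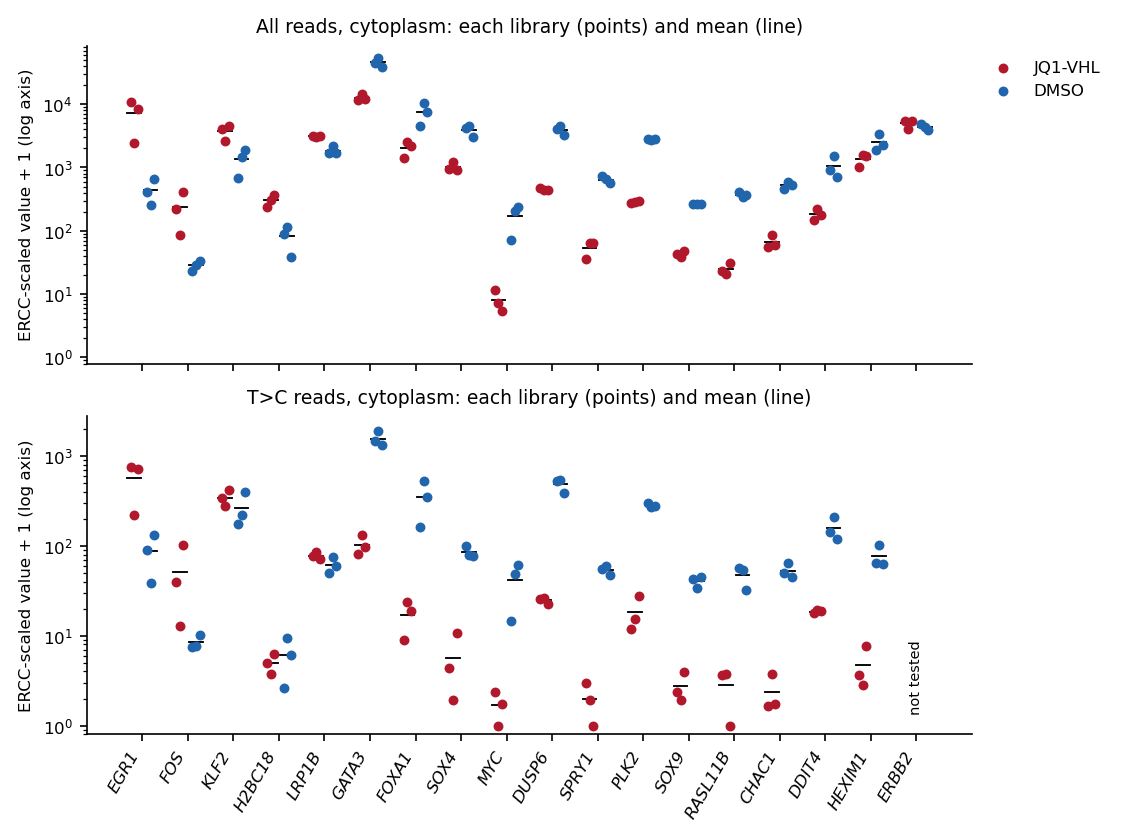
ERCC-scaled value + 1 of 18 genes in each library (points, log axis) and the mean of 3 libraries (line), in all reads (top) and T>C reads (bottom), JQ1-VHL left of DMSO. For all reads EGR1, FOS, KLF2, H2BC18 and LRP1B lie above DMSO in every JQ1-VHL library and MYC, DUSP6, SPRY1, PLK2 and SOX9 below it, and ERBB2 overlaps.

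The MAP kinase feedback genes, which are induced by ERK signalling and act to damp it, were lower in most members. Of 20 tested, 0 rose and 12 fell, where 12.5% of all genes fell, with a median log2 change of -1.24. DUSP6, a phosphatase that inactivates ERK, had 477, 446 and 443 in the JQ1-VHL libraries, against 4008, 4575 and 3249 in the DMSO libraries (log2 change -3.10 ± 0.25 (SE), adjusted p = 4.60e-06). SPRY1, a Sprouty protein that inhibits receptor tyrosine kinase signalling, had 34.2, 63.4 and 62.4 in the JQ1-VHL libraries, against 721, 646 and 562 in the DMSO libraries (log2 change -3.61 ± 0.27 (SE), adjusted p = 3.20e-06). DUSP4, a nuclear MAP kinase phosphatase, had 122, 178 and 139 in the JQ1-VHL libraries, against 1124, 1195 and 1092 in the DMSO libraries (log2 change -2.96 ± 0.19 (SE), adjusted p = 6.51e-07). None of the 3 genes showed any overlap between the groups, and the JQ1-VHL libraries were close to each other. DUSP5 and SPRY2 fell by 1.95 and 2.86 (adjusted p = 1.70e-05 and 0.000202), and IER3, an early response gene of cell survival, fell by 2.28 (adjusted p = 6.45e-05). The ETS factor genes ETV4 and ETV5, also targets of ERK signalling, did not pass (0.10 and -0.25, adjusted p = 0.887 and 0.715). In T>C reads 15 of 15 tested members fell, with a median of -2.74 once members with 0 reads in JQ1-VHL were set at their bound.

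Feedback genes of other signalling pathways fell in 15 of 26 tested members and 0 rose, with a median log2 change of -0.81. Over all genes 12.5% fell, with a median of -0.17. ID2, a helix-loop-helix inhibitor induced by BMP signalling, had 1742, 2524 and 2173 in the JQ1-VHL libraries, against 9876, 11169 and 6728 in the DMSO libraries (log2 change -2.09 ± 0.22 (SE), adjusted p = 3.39e-05). CISH and SOCS3, inhibitors of cytokine receptor signalling, fell by 1.90 and 2.44 (adjusted p = 3.89e-05 and 0.00124), and BAMBI, a decoy receptor of the TGF-beta family, fell by 1.42 (adjusted p = 0.00136). Without JQ1-VHL replicate 1 the count of falls was 10. Of the 15 KLF and SP transcription factors tested, KLF2 rose and 5 fell, among them KLF6 (-1.11, adjusted p = 0.0105) and KLF4 (-1.33, adjusted p = 0.0136). KLF6 was not called without DMSO replicate 2 (adjusted p = 0.0547), and KLF4 neither there nor without JQ1-VHL replicate 1 (adjusted p = 0.0682 and 0.0836). The count of falls was 2 without DMSO replicate 2 and 1 with weights per library.

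Growth and lineage transcription factors fell in 21 of 32 tested members, 0 rose, and the median was -0.90, against 12.5% and -0.17 of all genes. SOX9, a factor of epithelial progenitors, had 42.2, 38.05 and 47.5 in the JQ1-VHL libraries, against 266, 265 and 266 in the DMSO libraries (log2 change -2.62 ± 0.20 (SE), adjusted p = 3.20e-06). The 2 groups were tight and far apart. SOX4 (-1.92, adjusted p = 1.54e-05), the circadian repressor gene BHLHE40 (-2.82, adjusted p = 1.79e-05), the T-box repressor gene TBX3 (-1.56, adjusted p = 5.46e-05) and the epithelial ETS factor gene ELF3 (-1.66, adjusted p = 0.00016) fell too. The lineage factors of luminal cells were among the abundant RNAs that fell. GATA3, a zinc finger factor that specifies luminal cells, had 11629.8, 14459 and 11895 in the JQ1-VHL libraries, against 45036, 53383 and 39095 in the DMSO libraries (log2 change -1.85 ± 0.18 (SE), adjusted p = 1.66e-05). FOXA1, a pioneer factor that opens chromatin for nuclear receptors, had 1431, 2515 and 2159 in the JQ1-VHL libraries, against 4591, 10248 and 7533 in the DMSO libraries (log2 change -1.84 ± 0.26 (SE), adjusted p = 0.000291).

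The rest of the luminal and HER2 genes mostly did not pass: 4 of 33 fell, 0 rose, and the median was -0.15, close to the 12.5% and -0.17 of all genes. Besides GATA3 and FOXA1, those that fell were GRB7, an adaptor gene of the ERBB2 amplicon (-1.12, adjusted p = 0.0017), and CLDN3, a tight junction gene (-1.08, adjusted p = 0.0479). CLDN3 did not pass with any 1 of the DMSO libraries or of JQ1-VHL replicates 1 and 2 left out (adjusted p = 0.0682 to 0.203). ERBB2 itself had 5399.9, 4072 and 5407 in the JQ1-VHL libraries, against 4909.8, 4347 and 3974 in the DMSO libraries (log2 change 0.16 ± 0.34 (SE), adjusted p = 0.873), and the groups overlapped. XBP1, a factor of secretory cells, did not pass, but did with the replicate number as a block (-0.70, adjusted p = 0.0716, with the block 0.0189), as did the keratin gene KRT19 (-0.37, adjusted p = 0.137, with the block 0.0294). With the block 7 of the 33 genes fell.

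Of 28 p53 targets, 11 fell and 0 rose, with a median of -0.72, against 12.5% of all genes that fell and their median of -0.17. GADD45A, a growth arrest gene, had 109.96, 233 and 179 in the JQ1-VHL libraries, against 517, 769 and 713 in the DMSO libraries (log2 change -1.98 ± 0.24 (SE), adjusted p = 8.54e-05). BBC3, which encodes the proapoptotic protein PUMA, had 189.7, 253 and 248 in the JQ1-VHL libraries, against 584, 599 and 604 in the DMSO libraries (log2 change -1.38 ± 0.16 (SE), adjusted p = 7.60e-05). Both stood below DMSO in every JQ1-VHL library, whereas CDKN1A, the cell cycle inhibitor p21 and a classical p53 target, did not differ by more than the spread (0.01 ± 0.26, adjusted p = 0.994). Of 27 BCL2 family and cell death genes 6 fell, among them the inhibitor of caspases XIAP (-1.36, adjusted p = 0.000315). MCL1, an antiapoptotic BCL2 protein, had 2352, 2580.1 and 2258 in the JQ1-VHL libraries, against 3042, 5018 and 3357 in the DMSO libraries (log2 change -0.63 ± 0.19 (SE), adjusted p = 0.0394), a call lost without DMSO replicate 2 and without any 1 of the JQ1-VHL libraries (adjusted p = 0.0641 to 0.135). Of 24 heat shock and unfolded protein genes 5 fell, with a median of -0.16, close to that of all genes. These included CHAC1, an enzyme of glutathione breakdown (-2.99, adjusted p = 3.20e-06), the mTORC1 inhibitor gene DDIT4 (-2.48, adjusted p = 5.87e-05) and the pseudokinase gene TRIB3 (-1.13, adjusted p = 0.000472), all targets of the ATF4 branch. ATF4 itself fell in the fit of all libraries (adjusted p = 0.0202). It did not pass with weights per library, or without DMSO replicate 1 or 2 or JQ1-VHL replicate 1 or 3 (adjusted p = 0.0725 to 0.0954).

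JQ1-VHL carries a ligand of VHL, whose substrate is the hypoxia factor HIF. Of 28 HIF targets and VHL pathway genes tested, 0 rose and 4 fell, with a median of -0.21, close to the 12.5% and -0.17 of all genes. Those that fell were PFKFB3, a regulator of glycolysis (-1.37, adjusted p = 0.000305), ANKRD37 (-1.77, adjusted p = 0.000485), the angiogenic factor gene VEGFA (-1.04, adjusted p = 0.00724) and EGLN3, a HIF prolyl hydroxylase (-0.72, adjusted p = 0.0281). EGLN3 did not pass without DMSO replicate 1 or 3 or with any 1 of the JQ1-VHL libraries left out (adjusted p = 0.0657 to 0.103). VHL did not pass (-0.40, adjusted p = 0.327). With a block by run of library numbers VHL fell too (adjusted p = 0.0294). The runs are groups of nearby library numbers in the sample titles, with cuts chosen here and not given by the labels.

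Of 31 genes of P-TEFb and elongation factors 6 fell and 0 rose, with a median of -0.16, against 12.5% and -0.17 of all genes. The count of falls was 3 with only the groups compared, and 4 with weights per library or without JQ1-VHL replicate 1. HEXIM1, which holds P-TEFb inactive in the 7SK particle and is often raised by BET inhibitors, had 1023, 1546 and 1514 in the JQ1-VHL libraries, against 1919.97, 3357 and 2298 in the DMSO libraries (log2 change -0.88 ± 0.23 (SE), adjusted p = 0.0189). The groups did not overlap, but the call was lost without DMSO replicate 2 (adjusted p = 0.0864) and without JQ1-VHL replicate 1 (adjusted p = 0.12). Its paralog HEXIM2 (-1.61, adjusted p = 0.000209) and the 7SK capping enzyme gene MEPCE (-1.31, adjusted p = 0.000886) fell as well. Of 13 tested genes known to be raised by BET inhibitors in other cells, 0 rose, HEXIM1 fell and the median was 0.12. BRD2, itself a BET protein, did not pass (log2 change -0.27 ± 0.18 (SE), adjusted p = 0.434), but did with a block by run of library numbers (adjusted p = 0.0132). H2BC21, a polyadenylated histone gene, did not pass, but did with the replicate block (0.65, adjusted p = 0.0522, with the block 0.00791).

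The series is about export factors and nuclear speckles, and few export factor genes passed. Of 36 mRNA export factors tested, 2 fell and 0 rose, with a median of -0.06, against 12.5% and -0.17 of all genes. The 2 were NUP153, a nucleoporin of the nuclear basket (-1.56, adjusted p = 0.000834), and NXT1, which pairs with the export receptor NXF1 (-0.91, adjusted p = 0.013). NXT1 did not pass without DMSO replicate 2 or JQ1-VHL replicate 1 (adjusted p = 0.0603 and 0.0745). With the replicate block 4 fell, RAE1 among them (-0.62, adjusted p = 0.106, with the block 0.0154). Of 35 nuclear speckle and SR protein genes 9 fell, with a median of -0.33. The splicing factor gene RBM39 had 2015, 2554 and 2158 in the JQ1-VHL libraries, against 4739.9, 5633 and 3399 in the DMSO libraries (log2 change -1.01 ± 0.19 (SE), adjusted p = 0.00211), SRSF6 fell by 0.74 (adjusted p = 0.00189) and the cyclin gene CCNL2 fell by 1.098 (adjusted p = 0.00121). This count was 4 without DMSO replicate 2, without JQ1-VHL replicate 1 or without JQ1-VHL replicate 3. The retained noncoding RNAs MALAT1 (0.56, adjusted p = 0.512) and NEAT1 (-0.28, adjusted p = 0.577) did not pass.

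In all reads, none of the tested members of the ribosomal protein, respiratory chain, sterol and polyadenylated histone lists passed by limma's test. The histone genes H2BC18 and H3C4, which are outside the histone list, rose (adjusted p = 0.035 for H3C4). H3C4 did not pass without DMSO replicate 2 or 3 or with any 1 of the JQ1-VHL libraries left out (adjusted p = 0.0597 to 0.126). Of 78 cytosolic ribosomal protein genes 0 passed, with a median of 0.05, and of 51 respiratory chain genes 0 passed, with a median of -0.005. Of 24 genes of sterol synthesis and uptake 0 passed, and of 20 polyadenylated histone genes 0 passed, with a median of 0.20. At an unadjusted p under 0.05 there was 1 histone gene and 0 in the other 3 lists, edgeR called 0 in all 4, and DESeq2 called 1 histone gene. With a block by run of library numbers 5 sterol genes fell, among them HMGCS1, NSDHL and MSMO1 (adjusted p = 0.00249, 0.00397 and 0.0136), as did 2 respiratory chain genes. DMSO replicate 1 was the lowest of the 6 libraries in 40 of the 78 ribosomal protein genes. Under median-ratio scaling 6 ribosomal protein genes, 3 histone genes and 2 respiratory chain genes rose. Cell cycle genes fell in 4 of 37, with a median of -0.04, no more often than the 12.5% of all genes, whose median was -0.17. Those that fell included the phosphatase gene CDC25A (-1.17, adjusted p = 0.00039) and the transcription factor gene E2F2 (-1.18, adjusted p = 0.00149). The replication licensing factor gene CDT1 was another (-0.89, adjusted p = 0.00266). Of 45 ribosome biogenesis genes 9 fell, led by PPAN (-1.61, adjusted p = 4.28e-05) and RRS1 (-1.05, adjusted p = 0.000174), a count that was 2 to 9 with single libraries left out. Of 11 snoRNA host transcripts SNHG15 (-0.996, adjusted p = 0.0103) and EPB41L4A-AS1 (-0.59, adjusted p = 0.0103) fell, but neither passed under median-ratio scaling (adjusted p = 0.0505 and 0.103) or with only the groups compared (0.0514 and 0.0879). SNHG15 was also lost without JQ1-VHL replicate 1 (adjusted p = 0.0562).

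**Figure D4:**
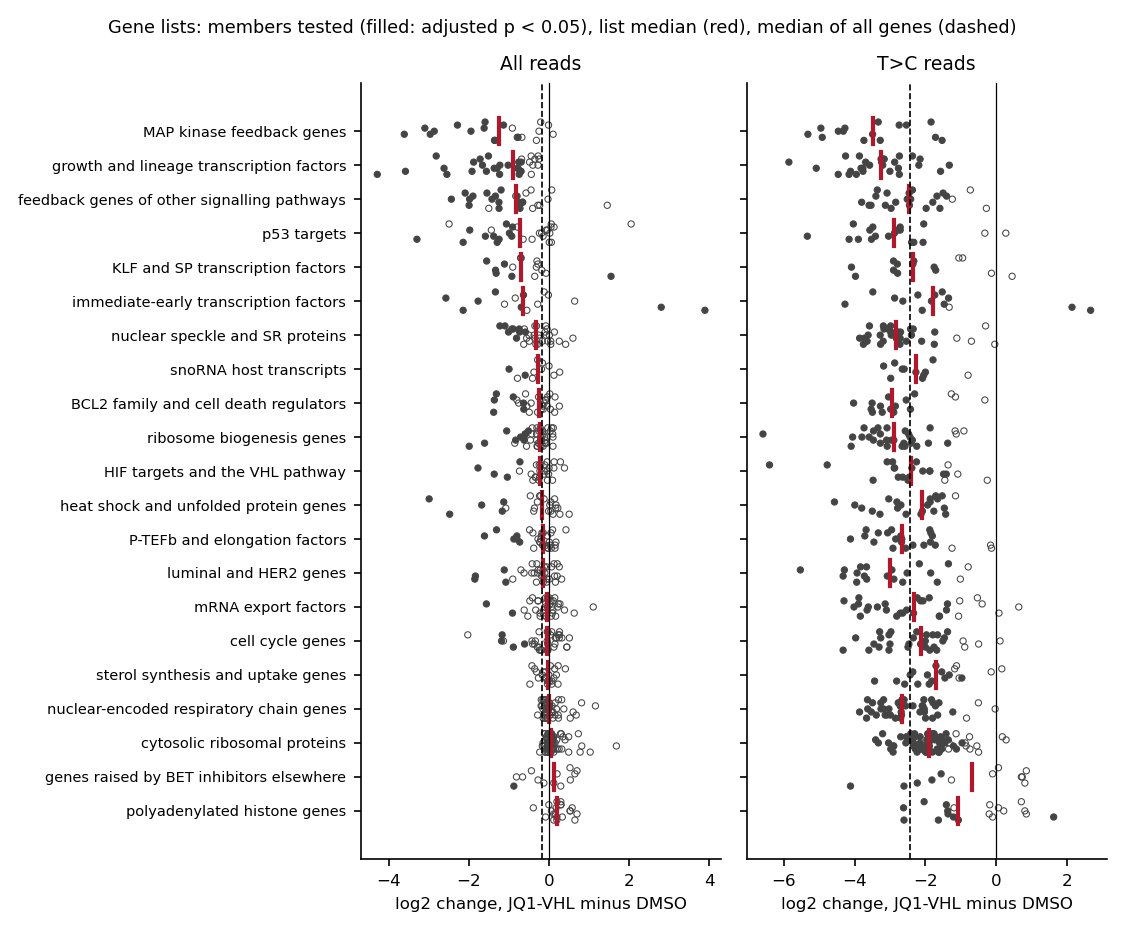
Log2 change, JQ1-VHL minus DMSO, of the tested members of the larger gene lists, left for all reads and right for T>C reads (points, filled where the adjusted p was under 0.05, with the list median in red). In all reads the medians run from -1.24 for the MAP kinase feedback genes to 0.20 for polyadenylated histone genes, whereas in T>C reads every list's median is below 0.

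In T>C reads most genes fell. Of 6300 tested with limma, 5214 fell (82.8%) and 12 rose (0.19%), and 4135 of those that passed fell at least 4-fold. A gene entered with a T>C value of 5 in 2 libraries of any group. One scarce with JQ1-VHL could thus enter through the libraries where it was high, so the percentage that fell holds for this filter. The median log2 change was -2.42, or -2.26 with the 694 genes that had 0 T>C reads in JQ1-VHL set at their bound. The size of this median depended on how low values were treated: it was -1.34 with a pseudocount of 5 in place of 1, and -1.63 with no filter, where 6175 of 10931 genes fell. MYC had 3 T>C reads in the JQ1-VHL libraries and 189 in the DMSO libraries, 58.2-fold lower by value (counting interval 19.2 to 279). DUSP4 had 3 and 286, 83.0-fold lower (counting interval 29.2 to 420). Intervals cover counting error only. RRS1, a ribosome assembly factor gene, had 0 reads in the 3 JQ1-VHL libraries and 410 in the 3 DMSO libraries, at least 41.3-fold lower against a floor of 3 reads per library. Likewise FOSL2 had 0 reads in the 3 JQ1-VHL libraries and 88 in the 3 DMSO libraries, at least 8.19-fold lower, and NUP153 had 0 reads in the 3 JQ1-VHL libraries and 83 in the 3 DMSO libraries, at least 8.19-fold lower. TRIB2, a pseudokinase gene, had 1 read with JQ1-VHL and 284 with DMSO.

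The largest falls of T>C reads were in genes with quite different total levels. PRR15L had T>C values of 0, 2.72 and 0 in the JQ1-VHL libraries, against 110.3, 93.7 and 106 in the DMSO libraries (log2 change -6.07 ± 0.55 (SE), adjusted p = 1.82e-09), and its total level was 413 ± 93.9 with JQ1-VHL and 2137 ± 137 with DMSO (SD, n = 3 each, adjusted p = 7.82e-06). EXOC8, a subunit of the exocyst that tethers secretory vesicles, had T>C values of 0.670, 3.62 and 0 in the JQ1-VHL libraries, against 104, 102 and 69.3 in the DMSO libraries (log2 change -5.53 ± 0.57 (SE), adjusted p = 1.58e-08), and its total level was 140.4 ± 28.3 with JQ1-VHL and 733 ± 155 with DMSO (adjusted p = 8.38e-05). In both genes T>C reads and all reads fell. TRPS1, a GATA-type repressor of breast epithelium, had T>C values of 4.69, 7.25 and 19.3 in the JQ1-VHL libraries, against 539, 518 and 336 in the DMSO libraries (log2 change -5.53 ± 0.53 (SE), adjusted p = 4.65e-09), but its total level of 7689 ± 870.4 with JQ1-VHL and 10541 ± 2561 with DMSO did not pass (adjusted p = 0.152). The TRPS1 total did pass with the replicate block (adjusted p = 0.0445), with the run block (0.00734) and without DMSO replicate 3 (0.00949). The totals of LASP1, an actin-binding protein of focal adhesions, were 13443 ± 960.3 with JQ1-VHL and 14389.6 ± 3154 with DMSO (adjusted p = 0.889), while its T>C reads numbered 6 with JQ1-VHL and 442 with DMSO (adjusted p = 1.63e-08). TFAP2B, an AP-2 transcription factor of the luminal lineage, fell in both (-5.86 in T>C reads and -0.70 in all reads, adjusted p = 1.05e-08 and 0.0091).

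Many genes whose total level did not pass fell in T>C reads. Of the 6299 genes tested in both kinds of reads, 4129 fell in T>C reads without passing in all reads, and 33 fell in all reads without passing in T>C reads. The ribosomal protein gene RPLP0 had T>C values of 14.8, 19.0 and 22.3 in the JQ1-VHL libraries, against 167, 152 and 120.04 in the DMSO libraries (log2 change -2.91 ± 0.39 (SE), adjusted p = 7.21e-07), while its total level was 86422 ± 10323 with JQ1-VHL and 84797 ± 11297 with DMSO (SD, n = 3 each, adjusted p = 0.943). BRD2 likewise fell in T>C reads (-2.23, adjusted p = 4.74e-06), and NXF1 had 1 T>C read with JQ1-VHL and 12 with DMSO. By list, 63 of 74 ribosomal protein genes fell in T>C reads, 39 of 42 respiratory chain genes, 27 of 31 cell cycle genes, 23 of 29 export factors, 29 of 33 speckle genes and 28 of 28 growth and lineage factors. With 82.8% of all genes falling, the counts were lower among histone genes (9 of 19 fell) and genes raised by BET inhibitors elsewhere (5 of 12), with median log2 changes of -1.06 and -0.68. H1-2, a linker histone gene, rose in T>C reads (1.63, adjusted p = 0.0195), a call lost without DMSO replicate 1 or JQ1-VHL replicate 3 (adjusted p = 0.112 and 0.194). CAGE1 rose by the test (1.23, adjusted p = 0.0251) with T>C values of 1493, 1445 and 1683 in the JQ1-VHL libraries, against 112, 1615 and 1541 in the DMSO libraries, so that its groups overlapped but for DMSO replicate 1.

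The T>C share of a gene's reads fell in 4841 of 6299 genes (76.9%) and rose in 7 (0.111%). For the abundant factor gene GATA3 it was 0.800% with JQ1-VHL and 3.39% with DMSO (adjusted p = 7.03e-10), and for ID2 5.12% with JQ1-VHL and 10.2% with DMSO (adjusted p = 2.62e-05). For DUSP6 it was 5.25% with JQ1-VHL and 12.3% with DMSO (adjusted p = 0.000789). EGR1 and KLF2, which rose in all reads, stood among the genes whose share fell.

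The fall in all reads was graded by the T>C share of a gene's reads. Genes were ranked by their T>C share in the DMSO libraries and cut into quintiles of 1259 or 1260 genes. From the lowest to the highest quintile, 1.83%, 5.95%, 11.9%, 22.1% and 46.9% of genes fell in all reads, and the median log2 change was -0.04, -0.09, -0.20, -0.35 and -0.75. DMSO values enter both measures, so the cut was repeated with the share in the JQ1 libraries, which gave 4.92%, 6.19%, 13.2%, 22.4% and 42.1%. Spearman's rho across the 6299 genes was -0.50 with the DMSO share and -0.42 with the JQ1 share, as a description, since genes are not independent replicates. Level went with the share: the median DMSO value was 5091 in the lowest quintile and 399 in the highest, and its part in the gradient was not tested.

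**Figure D5:**
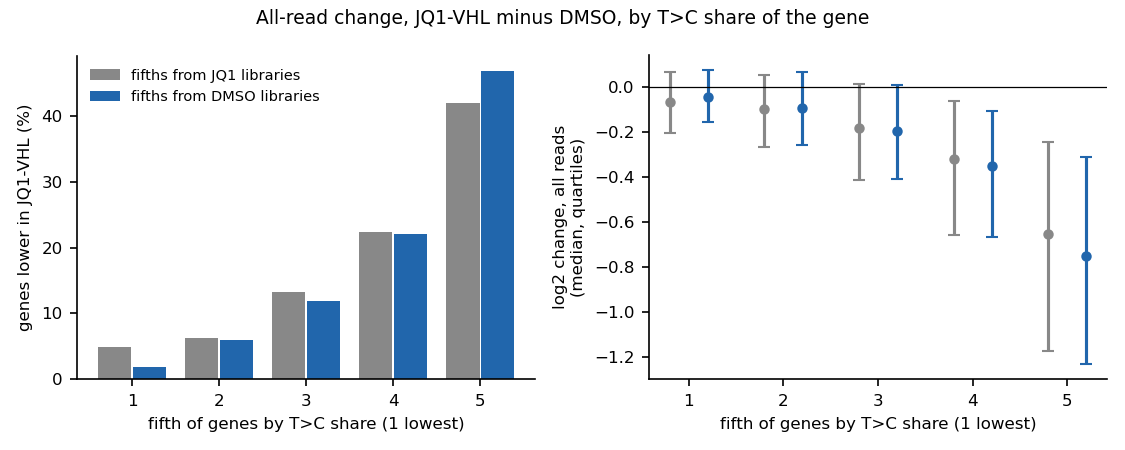
Log2 change in all reads, JQ1-VHL minus DMSO, in quintiles of genes by T>C share in the JQ1 (grey) or DMSO libraries (blue): percentage of genes that fell (left) and median with quartiles (right). By DMSO share 46.9% of genes fell in the highest quintile and 1.83% in the lowest.

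Of 14 mRNAs searched, 4 carry the AU-rich nonamer TTATTTATT in the 3′ untranslated region, a motif bound by ZFP36 family proteins, which shorten mRNA lifetime. The site of each of the 4 is shown, with the nonamer in capitals in the sense of the mRNA (GRCh38).
FOS, chr14:75282060-75282088, plus strand: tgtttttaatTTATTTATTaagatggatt
PLK2, chr5:58454066-58454094, minus strand: aataaactttTTATTTATTacagcccaaa
SOX9, chr17:72125498-72125526, plus strand: cttgctaaaaTTATTTATTttgtaaggag
ZFP36L1, chr14:68788077-68788105, minus strand: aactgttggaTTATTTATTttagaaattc
The other 10, among them EGR1, KLF2, DUSP6, SPRY1, EDN1 and GATA3, had 0. FOS rose, while PLK2, SOX9 and ZFP36L1 fell. ZFP36L1, which encodes one of the binding proteins and was named for its site, had 1112, 1481 and 1321 in the JQ1-VHL libraries, against 7066, 9215 and 8342 in the DMSO libraries (log2 change -2.65 ± 0.21 (SE), adjusted p = 3.40e-06). The nonamer was in 175 of 1523 fallers with an annotated 3′ UTR (11.5%), 809 of 10532 genes that did not pass (7.68%), 3 of 46 risers and 987 of all 12101 (8.16%). Fallers had longer UTRs, with a median of 1313 bases against 944.5 in genes that did not pass. Per 1000 UTR bases, fallers held 0.0848 nonamers and genes that did not pass 0.0632. The AU-rich pentamer ATTTA was no denser in fallers, at 2.25 per 1000 bases against 2.30 in genes that did not pass. Among UTRs of 1 to 500 bases 18.9% of genes with the nonamer and 7.70% without it fell. In UTRs of 501 to 1500 bases these were 17.6% and 14.2%, at 1501 to 3000 bases 17.8% and 15.2%, and over 3000 bases 17.6% and 14.1%.

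Genes with a zinc finger symbol (ZNF) were frequent among the fallers, a class chosen after the values were seen. Of 501 tested, 240 fell (47.9%) and 1, ZNF425, rose, with a median log2 change of -0.87, against 1316 of the other 11969 genes and a median of -0.16. ZNF792 (-3.47, adjusted p = 4.28e-05), ZNF613 (-3.18, adjusted p = 1.89e-05) and ZNF114 (-3.18, adjusted p = 3.56e-05) were among the largest falls of the whole table.

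JQ1-VHL was next set against its parent inhibitor JQ1, which lacks the linked VHL ligand, at the same time but with doses that the labels do not give. At the threshold 521 genes were lower (4.18%) and 6 higher (0.0481%) with JQ1-VHL than with JQ1, of 12470, so 4.23% passed. MYC averaged 7.18 with JQ1-VHL and 71.6 with JQ1 (difference -3.19, interval -4.22 to -2.16, adjusted p = 0.00106). RASL11B averaged 24.2 with JQ1-VHL and 259.99 with JQ1 (difference -3.39, interval -4.03 to -2.75, adjusted p = 1.24e-05), and RGS2, an inhibitor of G protein signals, 38.4 with JQ1-VHL and 397 with JQ1 (difference -3.36, interval -3.99 to -2.73, adjusted p = 1.14e-05). The MAP kinase feedback gene DUSP6 averaged 455 with JQ1-VHL and 1916 with JQ1 (difference -2.001, interval -2.53 to -1.47, adjusted p = 0.000203), and SOX9 42.6 with JQ1-VHL and 256 with JQ1 (difference -2.56, interval -2.98 to -2.14, adjusted p = 4.70e-06). Both compounds had values below DMSO for MYC and DUSP6, and DMSO averaged 171 and 3944.

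For HEXIM1, GADD45A and BBC3 the means with JQ1 and with JQ1-VHL lay on opposite sides of the DMSO mean. HEXIM1 averaged 1361 with JQ1-VHL and 4253 with JQ1 (difference -1.64, interval -2.13 to -1.16, adjusted p = 0.00048), with 2525 in DMSO. GADD45A averaged 174 with JQ1-VHL and 1339.96 with JQ1 (difference -3.0002, interval -3.51 to -2.49, adjusted p = 5.67e-06), with 666 in DMSO, and BBC3 230.2 with JQ1-VHL and 1188 with JQ1 (difference -2.37, interval -2.72 to -2.02, adjusted p = 2.95e-06), with 596 in DMSO. JQ1 alone against DMSO passed for GADD45A and BBC3 (adjusted p = 0.0223 and 0.00283) and not for HEXIM1 (adjusted p = 0.071). MCL1, CDKN1A and BRD2 were also lower with JQ1-VHL than with JQ1, although CDKN1A and BRD2 did not pass with JQ1-VHL against DMSO. MCL1 averaged 2397 with JQ1-VHL and 6321 with JQ1 (difference -1.38, interval -1.79 to -0.98, adjusted p = 0.00043). CDKN1A averaged 555 with JQ1-VHL and 1368 with JQ1 (difference -1.29, interval -1.85 to -0.74, adjusted p = 0.00842). BRD2 averaged 5959.7 with JQ1-VHL and 12862 with JQ1 (difference -1.09, interval -1.47 to -0.71, adjusted p = 0.00183). Of the lists, 12 of 20 MAP kinase feedback genes, 15 of 32 growth and lineage factors, 11 of 28 p53 targets and 9 of 15 immediate-early genes were lower with JQ1-VHL than with JQ1, and 0 of 78 ribosomal protein genes. Of all genes 4.18% were lower.

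Other genes did not pass between these 2 compounds. EGR1 averaged 7230.4 with JQ1-VHL and 2799 with JQ1 (difference 1.17, interval -0.26 to 2.60, adjusted p = 0.694), and the wide interval spans 0. RRS1 averaged 1946 with JQ1-VHL and 2044 with JQ1 (difference -0.07, interval -0.37 to 0.23, adjusted p = 1). Over all genes the 95% interval of the difference lay within 2-fold in 8554 of 12470 (68.6%), and the median difference was -0.02. Among the 1608 genes that passed against DMSO it did so in 774 (48.1%), with a median difference of -0.46. LRP1B, higher with JQ1-VHL, averaged 3139 with JQ1-VHL and 1929.7 with JQ1 (difference 0.72, interval 0.34 to 1.103, adjusted p = 0.0324). That call was lost without JQ1-VHL replicate 1, where 0 genes were higher with JQ1-VHL. The count of 527 genes was 259 without JQ1 replicate 1, 268 without JQ1-VHL replicate 1, 336 without JQ1 replicate 2 and 334 without JQ1-VHL replicate 3.

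Against IBET151-VHL, which joins the other inhibitor to a VHL ligand, nearly no gene passed: by limma 2 were higher (0.016%) and 0 lower with JQ1-VHL, against 274 and 49 at an unadjusted p under 0.05. edgeR called 1 higher and 0 lower, and DESeq2 29 higher and 0 lower. The interval of the difference lay within 2-fold in 9606 of 12470 genes (77.0%) and in 1200 of the 1608 genes that passed against DMSO (74.6%), and reached beyond 2-fold in the others. MYC averaged 7.18 with JQ1-VHL and 10.01 with IBET151-VHL (difference -0.47, interval -1.50 to 0.56), PLK2 285 with JQ1-VHL and 267 with IBET151-VHL (difference 0.12, interval -0.32 to 0.57) and GATA3 12661 with JQ1-VHL and 10766 with IBET151-VHL (difference 0.23, interval -0.14 to 0.61). EGR1 averaged 7230.4 with JQ1-VHL and 11057 with IBET151-VHL (difference -0.46, interval -1.89 to 0.98), and DUSP6 455 with JQ1-VHL and 296 with IBET151-VHL (difference 0.65, interval 0.12 to 1.18). EPC1, a subunit of the NuA4 acetyltransferase, was higher with JQ1-VHL: it averaged 1163 with JQ1-VHL and 427 with IBET151-VHL (difference 1.44, interval 1.04 to 1.84), adjusted p = 0.0205, with 2990.4 in DMSO. The other gene has no symbol in the gene table. Neither call held with only the groups compared, without any 1 of the IBET151-VHL libraries, or without JQ1-VHL replicate 2 or 3. In each of these settings 0 genes passed. Over 2 pairs of compounds compared, p-values were adjusted over all genes within each pair. The number of genes passing here ran from 0 to 37 between settings.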

How the data were processed

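RNA was read from the cytoplasm of MDA-MB-453 cells. Per the labels' protocols, ERCC RNA was added per mass of RNA and QuantSeq libraries were sequenced from the 3′ end as single 100 bp reads. The submitters' processing notes name bcl2fastq, Trimmomatic 0.39, HISAT2, HTSeq and DESeq2 and the builds GRCh37, hg19 and dm3. The authors deposited the values as a signal scaled to ERCC RNA. On division by the value of 1 read, 100% of values were within 0.001 of whole reads.

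A gene was kept if 2 or more libraries reached a value of 10 for all reads, or of 5 for T>C reads. The limma-trend method (limma 3.58.1, R 4.3.3) was applied to log2(value + 1) in the 14 cytoplasmic libraries together, which share 1 estimate of the spread. A fold change on this scale understates the change of low genes. For the T>C share the response was log2 of (T>C + 1) over (all + 1). Benjamini-Hochberg adjustment ran over all genes tested in a comparison, with 0.05 as the threshold for passing. Sums were compared by 2-sided exact permutation tests. Differences between compounds carry the linear model's 95% interval. Counting intervals and floors (3 reads per library) cover counting error only. Symbols came from a gene table that matched 16069 of 16482 identifiers.

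The 24 gene lists and the comparison itself were chosen with earlier results of these data known. Named genes are, per table, the 12 largest rises and falls that passed with no overlap and a mean that reached 50 for all reads or 20 for T>C reads, 5 each way for the share and between compounds, from every list the 6 tested genes with the lowest p, and 13 genes named in every comparison. Genes outside it were chosen after their values were seen: RPLP0, NXF1, ETV4, ETV5, CPE, CAGE1, ZFP36L1, and markers of the line or of other cells.

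Replicate numbers pair the libraries in all reads by the data, not by the labels. Deviations of same-numbered JQ1-VHL and DMSO libraries correlated at 0.203, 0.316 and 0.259. In T>C reads they correlated at 0.0235, 0.0343 and 0.0304, under the 0.1 asked for. JQ1-VHL replicate 3 and DMSO replicate 3 lie in different runs of library numbers, so the replicate block and the run block differ there. The settings varied were the pseudocount (0.5 or 5), the filter (none, or 5 times higher), median-ratio scaling, a fit of only the groups compared, a block by replicate number or by run of library numbers, library weights, and each library left out. The whole reads were also tested with edgeR 4.0.16 (quasi-likelihood) and with DESeq2 1.42.0. In simulated data with the fold set on genes with levels above the median, the fit of all reads recovered all 67 genes changed 4-fold and 39 of 67 changed 2-fold, with 7 of 12060 unchanged genes called. The T>C fit recovered 58 of 66 at 8-fold, 34 of 67 at 4-fold and 5 of 67 at 2-fold. Promoters and their starts are RefSeq's and 3′ UTRs GENCODE's, both on GRCh38, while the files use an older build, so genes were matched by identifier and no coordinate was converted. Figures used matplotlib 3.10.9.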

Additional observations from a re-analysis of the deposited data

How the results depend on the processing

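Against DMSO in all reads, the 1608 genes that passed became 980 (28 higher, 952 lower) with only the groups compared, 3336 (58 and 3278) with a block by run of library numbers and 895 (36 and 859) with weights per library. They were 906 to 2083 with single libraries left out, 2095 (72 and 2023) with the replicate number as a block, 1675 with edgeR and 2126 with DESeq2. Without DMSO replicate 2 the split was 135 higher and 977 lower. The cause of these moves was not tested. T>C counts fell with the stricter filter, which tests fewer genes: 1711 in T>C reads and 1683 for the share. With single libraries left out, 4393 to 5082 genes passed in T>C reads and 4214 to 4595 for the share, and 5277 with the replicate block in T>C reads. The sum of all reads changed sign under median-ratio scaling (0.14) and without DMSO replicate 2 (0.028; range of the log2 difference -0.16 to 0.028 with single libraries left out), and its exact permutation p with the replicate block was 0.75. The summed T>C value stayed below DMSO under median-ratio scaling (-1.31), and an exact permutation test within replicate blocks gave p = 0.25 for it and for the share, the smallest it can give with 3 pairs.

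Against JQ1, 527 genes became 1069 with the run block, 1261 with weights per library, 696 with the replicate block, 259 to 526 with single libraries left out, 534 with edgeR and 776 with DESeq2. Against IBET151-VHL, 2 genes became 1 with a pseudocount of 5, 1 with no filter, 9 with median-ratio scaling, 0 with only the groups compared, 19 with the run block, 37 with weights per library, 1 with edgeR and 29 with DESeq2. With single libraries left out there were 0 to 1, and with the replicate block 2. Of 105 named genes that passed against DMSO in all reads, 105 passed with the replicate block, 104 with edgeR, 92 with median-ratio scaling, 82 with only the groups compared, 80 with weights per library and 82 to 98 with single libraries left out. The T>C share at a pseudocount of 5 changed sign for EDN1 (1.28), RASL11B (0.79), SPRY2 (0.84), MYC (0.90), NR4A2 (1.06), ZNF792 (1.09) and RNF223 (0.78), genes with few T>C reads. Under median-ratio scaling the list medians of luminal and HER2 genes (0.07), P-TEFb and elongation factors (0.06), mRNA export factors (0.17), cell cycle genes (0.18), heat shock and unfolded protein genes (0.06), HIF targets and the VHL pathway (0.01), sterol genes (0.19) and respiratory chain genes (0.22) turned positive. The simulation recovered few 2-fold T>C changes, but 5917 of its 6117 genes were unchanged, where 82.8% of genes fell in the data. Adjustment is stricter when few genes change, so the power of this T>C comparison and the part of depth were not tested.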
